A study of Mus musculus with 18 samples.

Results

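Regulatory T cells (Tregs) sorted from infarcted heart were compared with Tregs sorted from injured skull bone, by bulk RNA sequencing. The comparison took every heart and bone library of the study, 6 of its 18 libraries, with 3 in each tissue. All mice were male, 10 weeks old and carried the Foxp3(DTR/GFP) allele, which marks cells that express Foxp3 with green fluorescent protein and makes them sensitive to diphtheria toxin. Heart Tregs came from mice with a myocardial infarction, made by tying the left coronary artery, and bone Tregs from mice with a defect cut in the calvarial bone. Both were collected 7 days after the injury, and each of these 6 libraries held cells pooled from 3 mice. The study also sorted Tregs from injured muscle and skin (3 libraries each) and from spleens of uninjured mice of the same strain, sex and age (6 libraries), for which pooling is not stated. The spleen libraries served as the shared reference. No uninjured heart or bone was measured, so that the effect of the injury and that of the tissue cannot be told apart.

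Tregs are CD4 T cells that depend on the transcription factor Foxp3 and restrain other immune cells. Outside lymphoid organs many of them carry the interleukin-33 receptor ST2, the chemokine receptor CCR8 and the epidermal growth factor family member amphiregulin, and are known for a part in tissue repair. In the infarcted heart they are known to limit inflammation and to affect the forming scar, and in bone they are known to restrain bone-resorbing osteoclasts.

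Total counts per library were 11139361, 12974890 and 12500409 in heart replicates 1 to 3. They were 22380599 in bone replicate 1 and 22635760 and 11588253 in the other bone libraries, called b and c here because their columns could not be tied to a replicate number. Library names came in 2 styles: heart replicate 1 and spleen replicates 1 to 3 carried the Endo style, while the other heart libraries, all bone libraries and spleen replicates 4 to 6 carried the Tregs style. The style was a term of the model, since what it stands for is not given in the sources used here. Only heart and spleen held both styles. Spleen replicates 1 to 3 had 6800059, 5970346 and 7230842 counts, with 3.16%, 2.30% and 0.834% ribosomal RNA. Spleen replicates 4 to 6 had 15607721, 15756884 and 13873680 counts, with 0.0689%, 0.0328% and 0.0121% ribosomal RNA. Levels below are CPM (counts scaled to a common library size, with TMM factors), not adjusted for style. They are given for heart replicates 1 to 3 and for bone replicate 1, b and c in that order. Each log2 fold change is heart minus bone, with its standard error and an adjusted p from edgeR, and a gene counts as higher in a tissue when that p was under 0.05.

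Of 15926 genes tested, 1064 differed between heart and bone Tregs (6.68%), with 640 higher in heart (4.02%) and 424 higher in bone (2.66%). Among these, 249 were at least 2-fold higher in heart and 175 at least 2-fold higher in bone. The median log2 fold change of all genes tested was −0.02. Every heart library was above every bone library in 2095 of the genes tested, and below every bone library in 2157. Lack of overlap alone is thus common, and below it only describes the values. Calls within the gene lists below are to be read against the 4.02% and 2.66% of all genes tested. Against spleen, sharing the same 6 spleen libraries, 3674 genes differed in heart Tregs (23.1%), with 2279 higher (14.3%) and 1395 lower (8.76%) than in spleen. In bone Tregs 2286 differed from spleen (14.4%), with 1415 higher (8.88%) and 871 lower (5.47%). Replicates were distinct libraries: a chi-square of their counts over genes was 80.1 per degree of freedom in heart and 24.2 in bone, where counting error alone would leave it near unity. The count of differing genes was 456 without heart replicate 2, 429 without bone library b and 460 without bone library c.

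**Figure D1:**
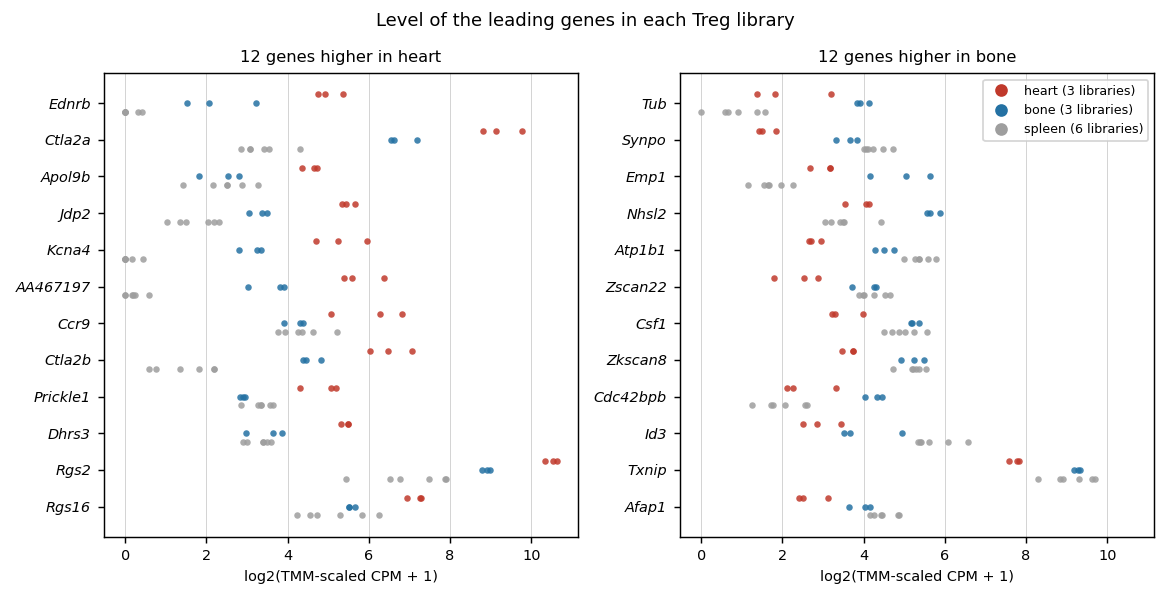
Levels of the 12 genes most raised in heart (left) and the 12 most raised in bone (right) in each library, as log2(TMM-scaled CPM + 1); each point is 1 library of heart (red), bone (blue) or uninjured spleen (grey). The 3 heart and 3 bone points of a gene do not overlap, which the choice of these genes required. Spleen points lie on the far side of bone from heart for Ednrb, Kcna4 and AA467197, while for Synpo, Atp1b1 and Id3 they lie above both tissues.

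Foxp3, the defining transcript of Tregs, did not pass between the tissues. It stood at 746, 711 and 624 CPM in heart and 764, 732 and 759.7 CPM in bone. Spleen ranged over 344 to 444 CPM (median 409), below every heart and bone library. The heart minus bone log2 fold change of Foxp3 was −0.13 ± 0.15 (adjusted p = 0.65), with a 95% confidence interval of −0.44 to 0.18. Ikzf2, which encodes the Treg factor Helios, gave −0.20 ± 0.15 (adjusted p = 0.48), and Il2ra, the high-affinity interleukin-2 receptor chain, 0.49 ± 0.18 (adjusted p = 0.088). Cd4 ranged over 489 to 631 CPM in heart and 555 to 652 CPM in bone.

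Ctla4, the inhibitory receptor through which Tregs remove costimulatory ligands from other cells, was higher in heart. Its level was 1749, 2000.0 and 1470.0 CPM in heart and 1050.0, 792 and 778 CPM in bone, with no overlap, and the log2 fold change was 1.14 ± 0.19 (adjusted p = 0.0013). Of 19 Treg identity genes tested, 4 were higher in heart (4.02% over all genes), 0 higher in bone (2.66%) and 15 passed in neither direction. Their median log2 fold change was 0.24. The others that passed were Socs2, a feedback inhibitor of cytokine signalling (0.80 ± 0.22, adjusted p = 0.028), Tnfrsf4, the costimulatory receptor OX40 (0.62 ± 0.16, adjusted p = 0.024), and Nt5e, the ectoenzyme CD73 that makes adenosine (0.64 ± 0.19, adjusted p = 0.045). The 3 calls were lost in 4, 3 and 15 of 26 alternative analyses in that order, whereas that of Ctla4 was kept in each. Without heart replicate 2, bone library b or bone library c, 1 gene of the list passed.

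Several of the genes most raised in heart were hardly detected in spleen. Ednrb, the endothelin B receptor (ENSMUSG00000022122, chromosome 14, 103814625 to 103844402 of GRCm38), stood at 25.8, 40.5 and 29.1 CPM in heart and 8.4, 1.87 and 3.21 CPM in bone, against 0 to 0.335 CPM in spleen. Every heart library was above every bone library, at a log2 fold change of 2.93 ± 0.53 (adjusted p = 0.0029). Kcna4, a voltage-gated potassium channel, followed the same order with 36.9, 61.5 and 25 CPM in heart, 9.23, 8.53 and 6.02 CPM in bone and 0 to 0.347 CPM in spleen. Its log2 fold change was 2.31 ± 0.53 (adjusted p = 0.012), and 4 of the 26 alternatives lost the call. AA467197, which encodes a small mitochondrial protein and is the host of a microRNA, gave 2.30 ± 0.44 (adjusted p = 0.0037) and was lost without heart replicate 2. Jdp2, a transcription factor of the AP-1 group that mostly represses, was 39.2, 49.6 and 42.1 CPM in heart and 7.24, 10.3 and 9.31 CPM in bone, at 2.38 ± 0.35 (adjusted p = 0.00050).

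Ctla2a and Ctla2b encode small inhibitors of cathepsin-type proteases and lie near each other on chromosome 13. Ctla2a stood at 564, 866 and 452 CPM in heart and 145, 92.5 and 98.1 CPM in bone, and Ctla2b at 88.2, 133 and 64.4 and 27.1, 19.6 and 20.8 CPM. For both genes the lowest heart library was above the highest bone library, and both tissues were above spleen, which held 6.19 to 18.9 and 0.497 to 3.55 CPM. The log2 fold changes were 2.40 ± 0.33 (adjusted p = 0.00099) and 2.20 ± 0.37 (adjusted p = 0.0024). Their split is uncertain, since 25.5% of the 50-base stretches of Ctla2a transcripts and 69.0% of those of Ctla2b also occur in another gene's transcripts, among them the gene model Gm49391 on the same strand.

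The 250 bases before the start of each gene are printed because the pair moved together and both windows hold the AP-1 motif TGANTCA, set in capitals. The sequences are from RefSeq (GRCm38.p6), on the minus strand and read 5′ to 3′. Ctla2a lies at chr13:60936626-60936875 and Ctla2b at chr13:60897448-60897697.
Ctla2a: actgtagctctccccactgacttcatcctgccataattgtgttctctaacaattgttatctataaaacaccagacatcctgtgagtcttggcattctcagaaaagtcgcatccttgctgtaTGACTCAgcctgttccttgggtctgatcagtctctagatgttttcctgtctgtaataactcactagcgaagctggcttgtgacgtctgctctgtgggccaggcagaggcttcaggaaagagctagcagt
Ctla2b: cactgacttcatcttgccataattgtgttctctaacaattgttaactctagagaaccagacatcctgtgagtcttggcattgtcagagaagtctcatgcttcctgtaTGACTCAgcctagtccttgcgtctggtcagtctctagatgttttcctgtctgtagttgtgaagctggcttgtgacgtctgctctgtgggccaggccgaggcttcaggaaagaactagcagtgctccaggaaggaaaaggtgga
The motif begins 129 bases before the start of Ctla2a and 143 before that of Ctla2b, with the letters TGACTCA in both. Over 228 aligned bases the windows were 91.2% identical. TGANTCA, which reads the same on either strand, was searched on both. It was in a window of 7.82% of the 27025 genes with a RefSeq promoter and of 5.13% of the 9685 of them that were tested. It was in a window of 36 of 360 genes higher in heart (10.0%) and of 23 of 298 genes higher in bone (7.72%). Of the 12 genes most raised in heart 4 held it, namely AA467197, Apol9b, Ctla2a and Ctla2b. Of the 10 most raised in bone with a window, 1 did (Emp1). The cyclic AMP response motif TGACGTCA was in a window of 3.33% of genes higher in heart, 2.68% of those higher in bone and 3.15% of those tested. These matches describe the letters and show no binding.

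Regulators of G-protein signalling, which shorten the signal of chemokine and other receptors, were among the genes most raised in heart. Rgs2 was 1470.0, 1583 and 1294 CPM in heart and 509, 440.5 and 477 CPM in bone, and Rgs16 152, 155 and 122 and 44.6, 49.5 and 45 CPM. The log2 fold changes were 2.00 ± 0.33 (adjusted p = 0.0026) and 1.98 ± 0.32 (adjusted p = 0.0016). Rgs1, at 1.76 ± 0.20 (adjusted p = 5.8e-05), and Rgs10, at 1.25 ± 0.20 (adjusted p = 0.00085), were also higher in heart, whereas Rgs14 was higher in bone at −0.78 ± 0.20 (adjusted p = 0.023). Of 11 tested genes of the family 4 were higher in heart (4.02% over all genes) and 1 in bone (2.66%), with a median of −0.18. The family was chosen after its values were seen. Rgs16 in bone did not pass against spleen, with a bone minus spleen log2 fold change of −0.06 ± 0.27 (adjusted p = 0.92).

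Some further leading genes have varied roles. Apol9b, an apolipoprotein L gene, was 2.40 ± 0.50 (adjusted p = 0.0055), a value that is uncertain because 52.3% of its 50-base stretches are shared, mainly with Apol9a. Prickle1, of the planar cell polarity pathway, was 2.17 ± 0.32 (adjusted p = 0.00056), and Dhrs3, which reduces retinal and so limits retinoic acid, 2.03 ± 0.29 (adjusted p = 0.00046). In both genes bone did not pass against spleen (adjusted p = 0.27 and 0.71), while heart was above spleen by 1.65 and 2.22 on the log2 scale. Ccr9, the receptor of the gut and thymus chemokine CCL25, was 32.5, 113 and 76.6 CPM in heart and 14, 19.8 and 18.6 CPM in bone. The Ccr9 fold change of 2.28 ± 0.63 (adjusted p = 0.046) was lost in 13 of the 26 alternatives.

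Genes of tissue effector Tregs had calls mostly toward heart. Of 20 tested, 9 were higher in heart (4.02% over all genes) and 1 higher in bone (2.66%). Their median log2 fold change was 0.82 against −0.02 over all genes tested. The list was drawn up with earlier results of these libraries known and is no independent evidence of direction. Il1rl1, which encodes the interleukin-33 receptor ST2 (chromosome 1, 40429570 to 40465415), was 1854, 1951 and 1186 CPM in heart and 736, 606 and 620.1 CPM in bone, against 45.5 to 82.1 CPM in spleen. Its fold change was 1.22 ± 0.20 (adjusted p = 0.00099). All heart libraries were above all bone libraries, with heart replicate 3 the lowest of the former.

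Ccr8, a chemokine receptor of tissue Tregs, was 241, 267 and 214 CPM in heart and 106, 69.8 and 54.6 CPM in bone, and bone replicate 1 was the highest of its group. The fold change of Ccr8 was 1.66 ± 0.19 (adjusted p = 5.8e-05) and was kept in every alternative. Pparg, the lipid-sensing nuclear receptor of fat-tissue Tregs, was 29.6, 60.1 and 61.3 CPM in heart, 19.4, 18.2 and 9.85 CPM in bone and 0.632 to 2.33 CPM in spleen, at 1.86 ± 0.33 (adjusted p = 0.0019). Heart replicate 1 was the lowest of the heart libraries and still above all of bone. Areg, the gene of amphiregulin, was 287, 474 and 356 CPM in heart and 211, 156 and 121 CPM in bone. These did not overlap, but the fold change of 1.56 ± 0.43 (adjusted p = 0.045) was just past the threshold and was lost in 15 of 26 alternatives, with adjusted p up to 0.20.

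The other members higher in heart were Ctla2a, Cxcr6, the receptor of CXCL16 (1.55 ± 0.38, adjusted p = 0.028), Nfil3, a basic leucine zipper repressor (1.41 ± 0.38, adjusted p = 0.040), Rora, an orphan nuclear receptor of type 2 lymphocytes (0.81 ± 0.24, adjusted p = 0.044), and Batf, a factor needed for effector Tregs (0.92 ± 0.23, adjusted p = 0.020). The call of Rora, whose heart and bone libraries overlapped, was lost in 14 of 26 alternatives, that of Nfil3 in 10, Cxcr6 in 5 and Batf in 4. Lmna, the gene of nuclear lamin A, went the other way with 209, 184 and 141 CPM in heart and 476, 420.4 and 256 CPM in bone, at −1.21 ± 0.30 (adjusted p = 0.024), a call lost in 6 alternatives, among them Tregs-style libraries only and without heart replicate 2 or 3. In spleen Lmna was 4.64 to 14.6 CPM, far below both tissues. Il10, an anti-inflammatory cytokine, did not pass (1.32 ± 0.45, adjusted p = 0.10) although its heart libraries, at 105, 192 and 81.4 CPM, were all above those of bone, at 69.9, 71 and 57.2 CPM. Klrg1, a marker of terminal effector cells (0.84 ± 0.28, adjusted p = 0.081), Gata3 (0.37 ± 0.17, adjusted p = 0.21) and Gzmb (−0.54 ± 0.42, adjusted p = 0.49) did not pass either. Across the 26 alternatives, 4 to 11 members of the list were higher in heart, with the lowest count without bone library b or c. The median was the highest of the 21 lists described, but without heart replicate 2 it was 0.61, below those of the heat shock and mitosis lists (both 0.84) and some others.

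**Figure D2:**
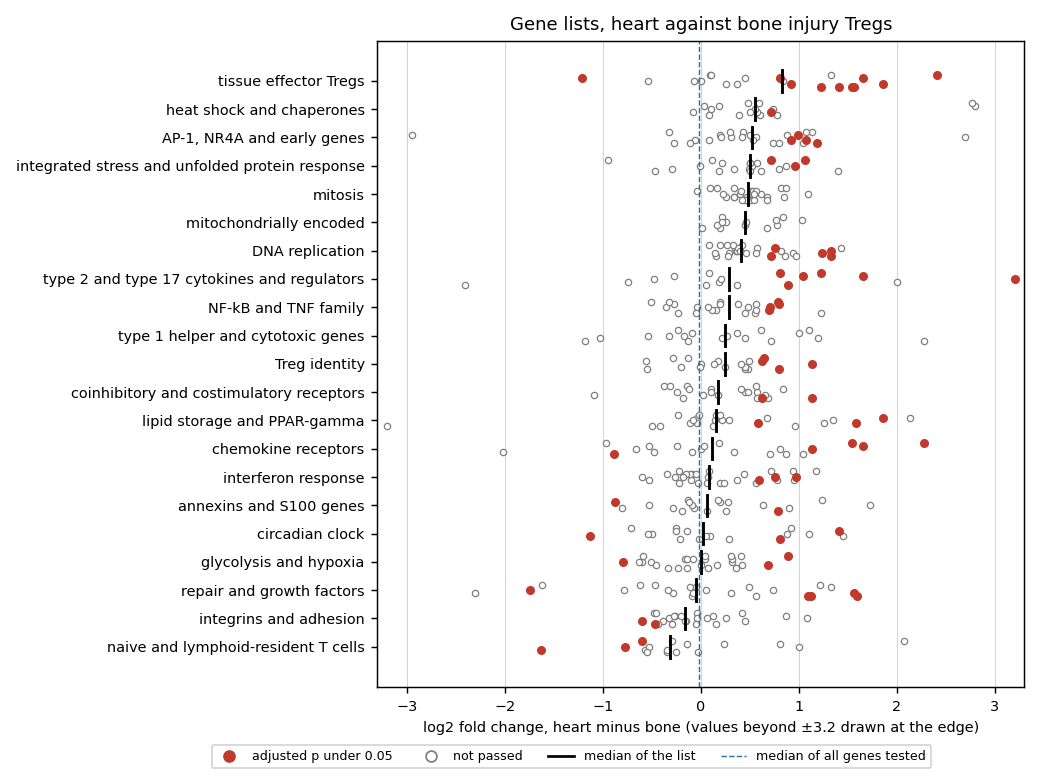
Log2 fold change, heart minus bone, of every tested member of 21 gene lists; filled points had an adjusted p under 0.05, black bars are list medians and the dashed line is the median of all genes tested (−0.02). Tissue effector genes have the highest median (0.82, but 0.61 and below that of heat shock genes without heart replicate 2) and naive T cell genes the lowest (−0.32), and no member of the mitosis and mitochondrially encoded lists passed.

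Il5, the gene of a type 2 cytokine that sustains eosinophils, was counted in every heart library and hardly in bone. Its level (chromosome 11, 53720794 to 53725106) was 16.1, 12.8 and 17.4 CPM in heart and 0, 0.16 and 0 CPM in bone, and was not counted in any spleen library. Bone held 4 counts in its 3 libraries together and spleen 0. The fitted log2 fold change of 7.72 ± 0.96 (adjusted p = 0.00028) depends on the prior count of the fit, and the call was kept in every alternative. On the opposite strand the gene model Gm12214 shares 27.1% of the exon bases of Il5, and whether counting used strand is not given in the sources used here. Il13, a type 2 cytokine that acts on epithelium and fibroblasts, was 4.99, 8.73 and 17.1 CPM in heart and 5.95, 1.64 and 1.8 CPM in bone. The Il13 values of heart and bone overlapped, and the fold change of 2.00 ± 1.00 (adjusted p = 0.24) did not pass.

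Of 16 tested genes of the type 2 and type 17 list, 6 were higher in heart (4.02% over all genes) and 0 in bone (2.66%), with a median of 0.29. Besides Il5, Il1rl1, Ccr8 and Rora these were Il17rb, a chain of the interleukin-25 receptor (1.04 ± 0.31, adjusted p = 0.042), and Bcl6, a transcriptional repressor that drives follicular helper T cells (0.89 ± 0.26, adjusted p = 0.043). The call of Il17rb was lost in 11 of 26 alternatives. With 1 heart or bone library left out 3 to 5 of the list passed. Calca, which encodes calcitonin and the neuropeptide CGRP, was 51.1, 21.2 and 3.7 CPM in heart and 1.04, 2.67 and 0.156 CPM in bone, at 3.38 ± 0.83 (adjusted p = 0.019), and the heart libraries differed widely among themselves. Type 2 innate lymphoid cells share these genes: of 9 tested markers, 4 (Il5, Il1rl1, Il17rb and Calca) were higher in heart, and the summed level was 2179 to 3185 CPM in heart, 1193 to 1534 in bone and 248 to 299 in spleen. Of that sum Il1rl1 alone was 1186 to 1951 CPM in heart and 606 to 736 CPM in bone. All 9 tested markers had a positive fold change (median 1.045), and in 5 every heart library was above every bone library. In that list Arg1 was at most 0.708 CPM in heart and 0 in bone, and a part of such cells in the result was not tested. Cytotoxic and type 1 helper genes gave 0 calls of 18 in either direction, with a median of 0.25.

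Lipid storage genes gave 3 calls of 23, all higher in heart (4.02% over all genes, list median 0.16). They were Pparg, Hilpda, a lipid droplet protein that blocks triglyceride breakdown and responds to hypoxia (1.58 ± 0.29, adjusted p = 0.0027), and Acsl4, which activates long polyunsaturated fatty acids (0.58 ± 0.14, adjusted p = 0.012). Hilpda was 67.6, 67.7 and 55.2 CPM in heart and 23.7, 18.2 and 17.1 CPM in bone, without overlap. The enzymes of the last step of triglyceride synthesis did not pass. Dgat1 gave 0.97 ± 0.31 (adjusted p = 0.068), with 656, 491 and 199.7 CPM in heart and 252, 221 and 151 CPM in bone, where heart replicate 3 overlapped bone. Dgat2 gave 1.25 ± 0.45 (adjusted p = 0.11) with no overlap, at 123, 121 and 83.9 CPM in heart and 38, 42.3 and 34.4 CPM in bone. Dgat1 and Dgat2 passed in 6 alternatives each.

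Among 23 tested repair and growth factors 4 were higher in heart (4.02% over all genes) and 1 in bone (2.66%), with a median of −0.05. Higher in heart were Areg, Lif, a cytokine of the interleukin-6 family (1.59 ± 0.36, adjusted p = 0.010), Fgl2, a secreted mediator of Treg suppression (1.12 ± 0.23, adjusted p = 0.0056), and Penk, the precursor of enkephalin opioid peptides (1.09 ± 0.20, adjusted p = 0.0024). Penk was 158, 215 and 161 CPM in heart and 100.2, 70.1 and 84.5 CPM in bone, a separation kept in every alternative. Csf1, the growth factor of macrophages and of osteoclast precursors, was higher in bone, at 39.8, 35.2 and 35.4 CPM against 8.76, 8.26 and 14.9 CPM in heart. Its fold change was −1.75 ± 0.28 (adjusted p = 0.00092). Bone Tregs did not differ detectably from spleen in Csf1 (0.15 ± 0.25, adjusted p = 0.77), whereas heart Tregs were below spleen (−1.60 ± 0.25, adjusted p = 2.6e-05).

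Receptors for migration gave calls in both directions. Of 20 chemokine and related receptors, 4 were higher in heart (Ccr8, Ccr9, Cxcr6 and Cxcr4) and 1 in bone (Gpr15), with a median of 0.11. Over all genes tested 4.02% were higher in heart and 2.66% in bone. Cxcr4, which binds CXCL12, was 458, 665 and 570.0 CPM in heart and 350.2, 268 and 315 CPM in bone, at 1.13 ± 0.25 (adjusted p = 0.0087). That call was lost without the style term and with Tregs-style libraries only. Gpr15, a homing receptor of the large bowel, was −0.88 ± 0.27 (adjusted p = 0.046), and 14 of the 26 alternatives, these included, lost its call. Ccr7, which guides T cells into lymph nodes, was 171, 118 and 150.0 CPM in heart and 67.7, 71.1 and 78.9 CPM in bone, without overlap, yet its fold change of 0.81 ± 0.42 (adjusted p = 0.28) did not pass. Bulk RNA cannot tell fewer cells of a kind from less RNA per cell, in these and all other results.

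Genes of naive and lymphoid-resident T cells gave calls toward bone and none toward heart. Of 16, 3 were higher in bone (2.66% over all genes) and 0 in heart (4.02%), with a median of −0.32. They included Id3, an inhibitor of E proteins (−1.63 ± 0.36, adjusted p = 0.0086), and Bcl2, a survival factor (−0.77 ± 0.22, adjusted p = 0.037). Id3 was 9.89, 4.64 and 6.22 CPM in heart and 11.6, 10.5 and 29.8 CPM in bone, where bone library c was well above the other libraries, and spleen was higher at 39.7 to 93.3 CPM. The call of Id3 was lost in 7 alternatives and that of Bcl2 in 4, and without heart replicate 2 or bone library c none of the list passed. Of 24 integrin and adhesion genes 0 were higher in heart and 2 in bone (median −0.16). Among these was Itga6, the integrin alpha 6 chain that binds laminin (−0.46 ± 0.14, adjusted p = 0.043). Its call was lost in 10 of the 25 alternatives that gave it an adjusted p.

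Early response and signalling genes gave calls toward heart and 0 toward bone. Over all genes tested 4.02% were higher in heart and 2.66% in bone. At the latter share lists of this size hold few or none toward bone. Of 26 genes of the AP-1, NR4A and early response list 4 were higher in heart and 0 in bone, with a median of 0.52. These were Dusp4 (1.18 ± 0.23, adjusted p = 0.0039) and Dusp5 (1.08 ± 0.27, adjusted p = 0.023), phosphatases that switch off MAP kinases, Nr4a1, an orphan receptor induced by T cell receptor signals (0.99 ± 0.29, adjusted p = 0.046), and Batf. Dusp4 was 578, 523 and 364 CPM in heart and 251, 240.3 and 233 CPM in bone, kept in every alternative. The call of Nr4a1 was lost in 13 of 26, that of Dusp5 in 6 and that of Batf in 4, and the list's count ranged over 1 to 9. A related phosphatase outside the list, Dusp10, was 348, 367 and 223 and 109.7, 116 and 112 CPM, at 1.64 ± 0.26 (adjusted p = 0.0013). In the NF-kB and TNF list 4 of 24 were higher in heart and 0 in bone (median 0.28): the inhibitors Nfkbid (0.80 ± 0.19, adjusted p = 0.011) and Nfkbia (0.70 ± 0.20, adjusted p = 0.037), the survival gene Birc3 (0.70 ± 0.16, adjusted p = 0.011) and the cytokine Tnf (0.79 ± 0.23, adjusted p = 0.043). The call of Tnf was lost in 16 of 26 alternatives, that of Nfkbia in 10, Birc3 in 3 and Nfkbid in 1. The list's count ran from 0 to 7 over the alternatives and was 0 without bone library b.

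Stress and metabolic lists had calls in both directions, to be read against the 4.02% of all genes tested that were higher in heart and the 2.66% higher in bone. The integrated stress and unfolded protein response list had 3 of 21 higher in heart and 0 in bone, with a median of 0.50. Psat1, of serine synthesis, was 1.07 ± 0.23 (adjusted p = 0.0080), Slc3a2, the heavy chain of amino acid carriers, 0.96 ± 0.21 (adjusted p = 0.0085), and Hspa5, the chaperone BiP of the endoplasmic reticulum, 0.71 ± 0.17 (adjusted p = 0.013). Hspa5 was also the single call among 17 heat shock genes, whose median was 0.55. Its level was 676, 564 and 619.9 CPM in heart and 437, 387 and 411 CPM in bone, and spleen, at 343 to 608 CPM, spanned most of that range. Glycolysis and hypoxia genes split, with 2 of 25 higher in heart, 1 higher in bone and a median of 0.00. Egln3, an oxygen-sensing prolyl hydroxylase (0.89 ± 0.21, adjusted p = 0.012), and Ero1l, which forms disulphide bonds (0.69 ± 0.19, adjusted p = 0.030), were higher in heart, and Slc2a3, the glucose carrier GLUT3 (−0.80 ± 0.21, adjusted p = 0.027), in bone. Of 30 interferon response genes 3 were higher in heart, namely Isg20 (0.97 ± 0.23, adjusted p = 0.012), Gbp3 (0.75 ± 0.18, adjusted p = 0.013) and Igtp (0.59 ± 0.17, adjusted p = 0.033), with a median of 0.08. Isg20 overlapped, at 24.9, 71.1 and 73.8 CPM in heart and 29.4, 22.2 and 46.1 CPM in bone. Its call was lost in 7 of 26 alternatives, that of Igtp in 5 and that of Gbp3 in 2. The call of Slc2a3 was lost in 6, Ero1l in 4, Hspa5 in 3, Egln3 and Psat1 in 2 each, and Slc3a2 in 1.

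Genes of DNA replication and of mitosis had mostly positive fold changes, and calls were made in the former list. Of 28 DNA replication genes 5 were higher in heart (4.02% over all genes) and 0 in bone (2.66%), and all 28 had a positive fold change (median 0.41). They included Lig1, DNA ligase (1.33 ± 0.22, adjusted p = 0.0011), Rfc4, of the clamp loader (1.32 ± 0.33, adjusted p = 0.017), Rrm1, of the enzyme that makes deoxynucleotides (0.76 ± 0.22, adjusted p = 0.034), and Mcm6, of the replicative helicase (0.72 ± 0.16, adjusted p = 0.0089). In both Rfc4 and Rrm1 heart replicate 3 was the highest, with 125, 115 and 210.5 CPM for Rrm1 against 119, 88.2 and 84.8 CPM in bone. Without heart replicate 3, 1 of the list passed, and 7 without heart replicate 2. The call of Rrm1 was lost in 11 of 26 alternatives and that of Rfc4 in 6. Of 28 mitosis genes 27 had a positive fold change (median 0.49), while 0 passed by edgeR and 0 by DESeq2. Over the alternatives the mitosis median ran from 0.10 to 0.84, so its size depends on the fit and the libraries. Whether the lists differ from each other was not tested. Mki67, a proliferation marker, was 467, 426 and 814 CPM in heart and 561, 583 and 637 CPM in bone, with overlap, at 0.41 ± 0.70 (adjusted p = 0.79). Its mean level was lower in heart (569 CPM) than in bone (594 CPM), and its fold change ran from −0.18 to 0.88 over the alternatives. The 13 mitochondrially encoded genes gave 0 calls and a median of 0.45.

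The genes most raised in bone had varied roles, and in one set of them heart was further from spleen than bone was. Txnip, which binds thioredoxin and limits glucose uptake, was 192, 225 and 217 CPM in heart and 621, 577 and 647 CPM in bone, with bone inside the spleen range of 310.3 to 825 CPM. Every bone library was above every heart library, at a log2 fold change of −1.63 ± 0.26 (adjusted p = 0.0015). Synpo, an actin-binding protein, was 1.7, 1.81 and 2.6 CPM in heart and 9.02, 11.7 and 13.2 CPM in bone, at −2.40 ± 0.47 (adjusted p = 0.0032), and spleen held 15.2 to 25.6 CPM. Atp1b1, the beta chain of the sodium pump, showed the same order of heart, bone and spleen, with 5.46, 5.35 and 6.77 CPM, 21.5, 18.5 and 25.7 CPM and 31.1 to 54 CPM, and gave −1.81 ± 0.32 (adjusted p = 0.0020). In Atp1b1 bone was below spleen too (−1.06 ± 0.29, adjusted p = 0.012). Afap1, which crosslinks actin filaments (−1.62 ± 0.30, adjusted p = 0.0024), and the zinc finger genes Zscan22 (−1.78 ± 0.35, adjusted p = 0.0038) and Zkscan8 (−1.73 ± 0.23, adjusted p = 0.00024) were likewise lower in heart than in spleen, with adjusted p of 5.9e-06, 4.9e-05 and 1.4e-06. Bone did not pass against spleen in these 3.

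A second set was higher in bone than in spleen as well. Emp1, a small membrane protein first known from epithelium, was 8.0, 8.02 and 5.35 CPM in heart, 32, 48.5 and 16.7 CPM in bone and 1.21 to 3.8 CPM in spleen, at −2.22 ± 0.40 (adjusted p = 0.0024). Bone varied most in this gene, with library c the lowest of its group and still above heart. Tub, a protein of ciliary traffic, was 8.1, 2.52 and 1.57 CPM in heart and 13.2, 16.6 and 14.1 CPM in bone, at −2.50 ± 0.64 (adjusted p = 0.023), and heart replicate 1 was far above the other heart libraries. Nhsl2 (−1.91 ± 0.39, adjusted p = 0.0074) and Cdc42bpb, a kinase downstream of Cdc42 (−1.71 ± 0.43, adjusted p = 0.018), had bone minus spleen values of 2.42 and 2.39, against heart minus spleen values of 0.50 and 0.69 that did not pass. Of the annexins and S100 genes 1 of 19 was higher in bone, Anxa2, a membrane-binding annexin (−0.87 ± 0.19, adjusted p = 0.0064), and 1 in heart, S100a13 (0.78 ± 0.23, adjusted p = 0.038). Clock genes gave 2 of 18 higher in heart, Nfil3 and Rora, and 1 in bone, the output factor Dbp (−1.13 ± 0.33, adjusted p = 0.038). The call of Dbp was lost in 12 of 26 alternatives, among them no style term and Tregs-style libraries only, and that of S100a13 in 6. Over all genes tested 4.02% were higher in heart and 2.66% in bone.

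Markers of other cells were counted in both tissues at low to moderate levels. The summed level of 15 macrophage and monocyte markers was 17.2 to 126 CPM in heart and 28.9 to 35.0 CPM in bone, with heart replicate 1 the highest of all, where Csf1r was 20.9 CPM against at most 0.708 in the other heart libraries. Without that library 1115 genes differed between the tissues. B cell markers summed to 277 to 532 CPM in heart and 516 to 570 CPM in bone, most of it Ighm. Dendritic cell markers summed to 110 to 738 CPM in heart and 377 to 455 CPM in bone, most of it Cd74 and class II genes, which heart replicate 2 held least of. None of 11 tested B cell markers (median −0.43) and none of 12 tested dendritic cell markers (median −0.06) passed in either direction by edgeR. Of 13 tested macrophage and monocyte markers 1 was higher in heart and 1 in bone (median 1.295, but −0.27 without heart replicate 1). Among 6 tested erythroid and 4 tested keratinocyte markers, 1 each was higher in heart (medians 1.725 and 2.11). No marker passed among 7 tested for neutrophils (median 1.49) and 10 for CD8 T and NK cells (median −0.70). Siglech, a marker of plasmacytoid dendritic cells, was 0.188, 0 and 1.02 CPM in heart and 18.2, 44.8 and 27.8 CPM in bone, and at −5.83 ± 1.86 (adjusted p = 0.084) it did not pass. Ly6d, a surface protein of B lineage and plasmacytoid precursors (−3.59 ± 0.77, adjusted p = 0.0074) and the immunoglobulin gene Iglc1 (−7.28 ± 1.67, adjusted p = 0.032) were higher in bone, with Iglc1 at 23.5, 2.79 and 50.9 CPM there. These were singled out after their values were seen.

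Several defining genes of the tissues themselves had no count, while other markers of the same lists were counted. Of 14 heart muscle markers 3 (Myl3, Myl7 and Nppb) had no count in any heart or bone library. The others were counted in at least 1, and Myh6 was 2.35, 0 and 2.75 CPM in heart. Of the 4 that were tested 0 had a positive fold change, with a median of −0.84. The summed level of 311 to 929 CPM in heart and 688 to 929 CPM in bone was nearly all Ttn. Ryr2, the calcium release channel of heart muscle, was higher in bone (−3.07 ± 0.85, adjusted p = 0.033) at no more than 5.94 CPM. Of 13 bone cell markers 6 (Bglap, Bglap2, Sp7, Ibsp, Dmp1 and Sost) had no count in heart or bone Tregs, and the others were counted. Runx2 and Acp5 made up nearly all of the 163 to 192 CPM in heart and 186 to 204 CPM in bone. Of 5 tested bone cell markers 0 passed, with a median of 0.60. Col1a1, the main collagen of bone and scar, was counted in every heart and bone library, with 2.92, 5.03 and 3.62 CPM in heart and 10.8, 23.2 and 24.6 CPM in bone, at −2.50 ± 0.93 (adjusted p = 0.13). Of 11 tested fibroblast markers 0 passed, but the median was −2.30 and only 1 had a positive fold change. Over the alternatives 0 to 4 of them were higher in bone. Their summed level was 340 to 455 CPM in heart and 389 to 452 CPM in bone. Of 5 tested endothelial markers 0 had a positive fold change, with a median of −1.57. The endothelial sum was 79.3 to 99.2 CPM in heart and 115 to 128 CPM in bone. That list gave 1 call, Pecam1, also found on T cells, higher in bone (−0.47 ± 0.14, adjusted p = 0.041). Emcn and Cldn5 were at 0 in both tissues. The part of other cells in the gene differences was not tested.

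**Figure D3:**
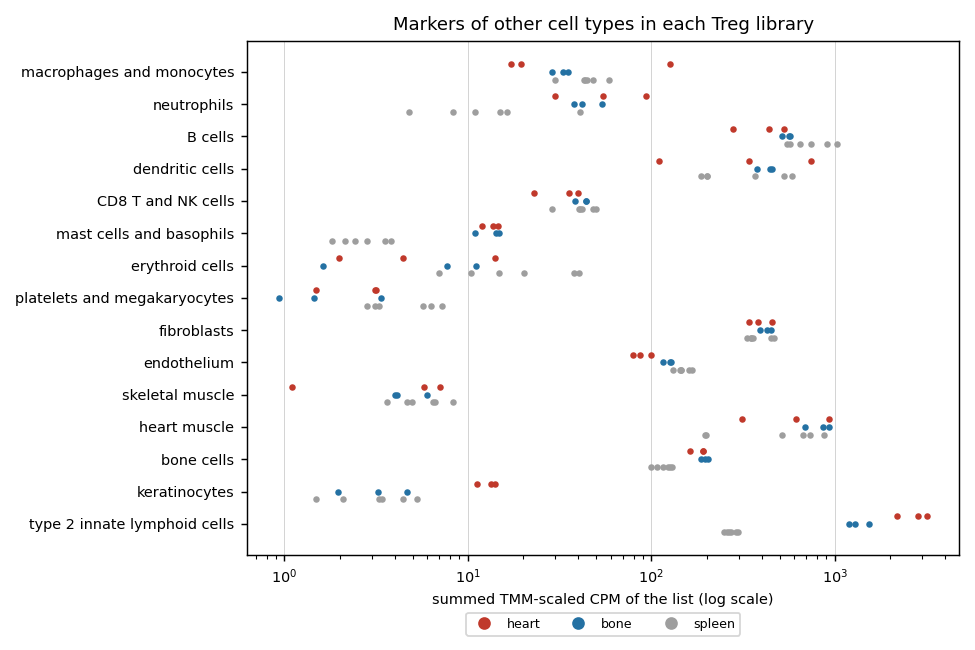
Summed TMM-scaled CPM of 15 marker lists of other cell types in each heart (red), bone (blue) and spleen (grey) library, on a log scale. Heart replicate 1 stands apart in macrophage markers (126 CPM), bone libraries lie close together in most lists, and markers of type 2 innate lymphoid cells, which share genes with tissue Tregs, are highest in heart.

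Naming style and tissue were partly crossed, since 1 heart library carried the Endo style and 0 bone libraries did. With Tregs-style libraries alone, 2 heart libraries against 3 of bone, 960 genes differed, 570 higher in heart and 390 higher in bone, and 683 were among the 1064. All 88 genes followed kept their direction in these libraries. These libraries are also part of the main fit, and 72 of the 88 genes passed in it. A kept direction is thus little evidence about style. With Tregs-style libraries alone 8 tissue effector genes were higher in heart and 0 in bone, and 38 of the tested cytosolic ribosomal protein genes were higher in heart.

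**Figure D4:**
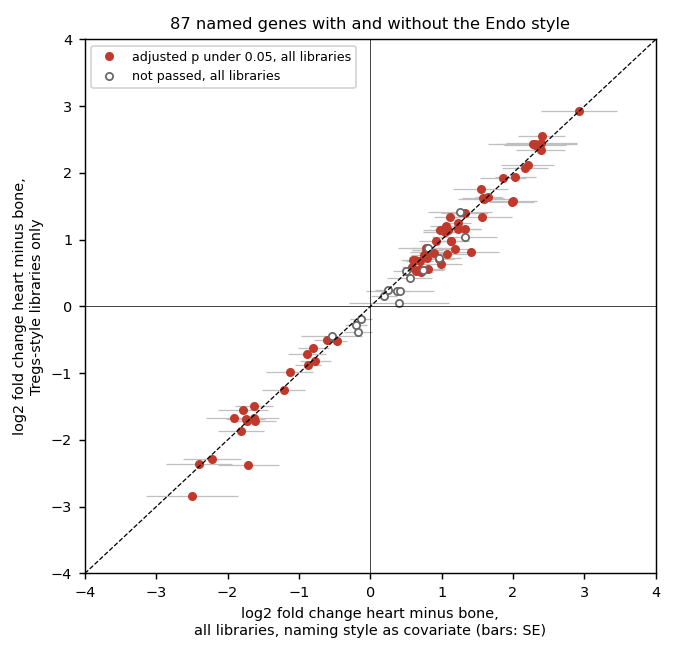
Log2 fold change, heart minus bone, of 87 genes followed through the alternatives, with all libraries and naming style as a covariate (x axis, bars are standard errors) and with Tregs-style libraries only (y axis). Points lie along the dashed line of equality, and 1 gene, Il5, falls beyond the axes. Both fits share libraries, and most of these genes were chosen for passing in the fit of the x axis.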

How the data were processed

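Sorted Tregs were lysed, and their RNA was isolated on small-sample columns and prepared with the Ovation Solo kit, per the labels' protocols. The deposited values are raw counts of reads per gene in 2 tables, one with bone and one with heart, whose 6 spleen columns are identical. The submitters' processing notes name STAR, featureCounts, limma and GRCm38, without versions. Which annotation release and strand setting were used, and whether molecular identifiers were counted, is not given in the sources used here. Both tables were joined by gene ID (46078 genes), and no column was left out.

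Genes were filtered by filterByExpr and scaled by TMM. Tests over all 18 libraries used edgeR 4.0.16 (R 4.3.3) and its quasi-likelihood F test in robust form, with group and naming style as terms and Benjamini-Hochberg adjustment at 0.05. All 5 groups shared 1 estimate of the spread. The comparison of heart with bone was read directly from this fit, and both were also read against the same spleen libraries. Standard errors came from the F statistic, and p-values reflect only how far these libraries, pools of mice for the injured tissues, lay from one another.

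The members and gene lists were chosen with earlier results of these data known. Named genes were the 12 with the highest and the 12 with the lowest fold change among genes past the threshold whose mean log2 CPM reached 3 and whose heart and bone libraries did not overlap. Genes without a name or named for a clone, Y-linked genes, Xist, and genes of T cell receptors and immunoglobulins were left out. A further 15 genes were named whatever their values (Areg, Ccr7, Ctla4, Dgat1, Dgat2, Foxp3, Gata3, Gzmb, Ikzf2, Il10, Il1rl1, Il2ra, Il5, Lmna and Pparg), as were, of each list, up to 4 highest and 4 lowest that passed, or 2 of the highest level where fewer than 2 passed. Some genes that these rules name are not reported here. Other genes given in the text were chosen after their values were seen. Gene positions are from GENCODE M21 (GRCm38), and names and biotypes from the deposited tables. The 26 alternatives changed the style term, the libraries, the scaling, the filter, the tool (DESeq2 1.42.0, limma-voom of limma 3.58.1) or the replicate block, or left out 1 library. Lists were counted under each of these, a choice made after the data were seen.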

Additional observations from a re-analysis of the deposited data

Results flagged for a closer look

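The effects of heart and bone against spleen differed, by the direct test of heart against bone, for 1064 genes. Since both share their spleen libraries, no other measure of likeness between the effects is given.

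In 5 of 38 genes examined, 1 of the 6 spleen libraries lay apart from the other spleen libraries by Dixon's criterion. For normally distributed values chance alone meets it in about 1 in 20 groups. Ctla2a was 18.9 CPM in spleen replicate 3, with the next library at 10.6 CPM. Kcna4 was 0.347 CPM in spleen replicate 2 (next 0.127 CPM). AA467197 was 0.497 CPM in spleen replicate 1 (next 0.173 CPM). The 6 spleen libraries together held 3 counts of Kcna4 and 7 of AA467197, too few for that rate to apply. Nhsl2 was 20.7 CPM in spleen replicate 1 (next 10.4 CPM), and Il1rl1 was 82.1 CPM there (next 51.7 CPM). Each of these spleen values was below every heart library of its gene except that of Nhsl2, whose heart libraries were at 10.7, 15.7 and 16.5 CPM. Heart and bone, with 3 libraries each, were not examined in this way.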

How the results depend on the processing

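Of 88 genes followed, 72 passed, 28 of these passed in every alternative that gave an adjusted p, 44 lost their call in at least 1, and 0 turned direction. All alternatives reused heart and bone libraries of the main fit, from which most of these genes were chosen. A kept direction is thus little independent evidence. Of the 16 that did not pass, 7 passed in some alternative. The number of genes that differed between heart and bone was 1064 and became 1630 with DESeq2. Leaving out 1 library gave 429 to 1115, with 456 without heart replicate 2, 429 without bone library b and 460 without bone library c; the cause was not tested. The other alternatives gave 843 to 1466. Upper-quartile scaling gave 564 higher in heart and 539 in bone. Against spleen, leaving out 1 library gave 2755 to 3688 for heart and 1683 to 2325 for bone. With upper-quartile scaling 1913 genes were above and 1808 below spleen in heart, where 2279 and 1395 are reported, and the median of all genes moved to −0.10.

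Deviations of heart and bone libraries from their groups correlated at −0.039 to 0.047 over all pairs of a heart and a bone library. Bone libraries b and c have no known replicate number, so these values cannot show whether samples were paired. The main fit used no pairing. A replicate block in place of the style gave 1142 genes for heart against bone, or 1100 with bone libraries b and c exchanged. Against spleen it gave 3623 and 3621 for heart, and 2981 and 2934 for bone. Fits of the 6 heart and bone libraries alone give no value against spleen. Genes with few counts, such as Il5 in bone, are limited by depth.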

Other observations

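Some cytosolic ribosomal protein genes were higher in heart Tregs. Of 74 tested that the deposited table labels protein-coding, 22 were higher in heart (4.02% over all genes), 0 in bone and 52 in neither, with a median log2 fold change of 0.57, and 72 were positive. Rpl32 was 923, 931 and 1112 CPM in heart and 473, 419 and 517 CPM in bone, at 1.07 ± 0.18 (adjusted p = 0.0013), and Rpl22 1.06 ± 0.16 (adjusted p = 0.00067). The family was chosen after its values were seen, and 10 to 46 members passed over the alternatives, with 10 without heart replicate 3. Their share of all counts was 1.13% to 1.45% in heart, 0.808% to 0.910% in bone and 1.54% to 2.21% in spleen. Rps27l, a ribosomal protein-like gene induced by p53, was 1.63 ± 0.26 (adjusted p = 0.0010). Of 63 genes of mitochondrial ribosomal proteins 5 were higher in heart and 0 in bone (median 0.36). Processed pseudogenes, of which 107 of 1171 were higher in heart and 1 in bone, share sequence with such abundant genes, and what share of these calls comes from parent genes was not tested.

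Of 283 tested zinc finger genes named Zfp, Zscan or Zkscan and labelled protein-coding, 20 were higher in bone (2.66% over all genes), 5 in heart and 258 in neither. Their median was −0.28, and the family was also chosen after its values were seen. Zfp397 was 24.6, 27.6 and 20.9 CPM in heart and 43.3, 52.7 and 54.1 CPM in bone, at −1.04 ± 0.21 (adjusted p = 0.0039), and Zfp831 −0.68 ± 0.17 (adjusted p = 0.021). Zfp51, Zfp52 and Zfp53 were among the 5 higher in heart, at 0.82 ± 0.24, 0.90 ± 0.22 and 0.70 ± 0.20. Without heart replicate 2, 6 of the family were higher in bone.

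Ccr9, Lztfl1 and Cxcr6 lie within 200 kb of each other on chromosome 9 (GRCm38), at 123678439 to 123784330, 123694416 to 123717697 and 123806475 to 123811760, and all were higher in heart. Lztfl1, a regulator of ciliary traffic, was 82.7, 108 and 107 CPM in heart and 31.2, 34.8 and 26 CPM in bone, at 1.78 ± 0.23 (adjusted p = 0.00023). Fyco1, whose gene spans Cxcr6 on the opposite strand, did not pass (−0.13 ± 0.20, adjusted p = 0.77), nor did Ccr1 (0.87 ± 0.39, adjusted p = 0.21). The Ccr9 gene model spans Lztfl1, on the other strand. The region was noticed after the values were seen.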
